A study of Homo sapiens with 12 samples.

Results

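The genes described here make, carry and sense retinoic acid. They are the retinaldehyde dehydrogenases ALDH1A1, ALDH1A2 and ALDH1A3, the cellular retinoic acid binding proteins CRABP1 and CRABP2, the receptors RARA, RARB, RARG and RXRA, and the retinoid-responsive gene RARRES1. They were taken as a list of 10 gene symbols, and every probe set that names 1 of these genes and no other was used on its own. Of the 10 genes, 9 were measured, by 22 probe sets of the 19064 that name 1 gene (11963 genes). No probe set used here named CRABP1, which was not analysed here. The genes were chosen on the log2 differences between the groups on these same arrays, so their values are given as a description and not as a test of the list.

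Expression was measured on 12 Affymetrix arrays, 3 in each of 4 groups labelled as biological replicates. All groups were labelled MDA-MB-231, a human breast cancer line kept in culture, and as carrying a stable LSD2 shRNA, a Scramble shRNA, an LSD2/eGFP/Flag vector or an eGFP/Flag vector. LSD2, the product of KDM1B, removes methyl groups from lysine 4 of histone H3, and the labels set an shRNA against LSD2 and a vector for it each beside a control. All groups were kept in 800 µg/ml G418, which kills cells without a transfected vector. The labels do not say whether a line was a clone or a pool, which promoter drove a vector, or whether the replicates were separate transfections, so the errors measure the spread between these samples, which may be technical.

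Retinol from the diet is oxidised to retinal and then, by the ALDH1A enzymes, to retinoic acid. CRABP proteins bind retinoic acid in the cytoplasm, and CRABP2 delivers it to the receptors in the nucleus. There the RAR and RXR proteins sit as pairs on response elements, which are direct repeats of a short core motif, recruit corepressors without ligand and coactivators with it, and induce genes that include RARB itself and CYP26A1, the enzyme that breaks retinoic acid down. In breast cancer, ALDH1A1 and ALDH1A3 are known from assays of aldehyde dehydrogenase activity that mark stem-like cells, and RARB is known as a gene that is often silenced.

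The promoter windows of 3 members whose values changed most, and of CYP26A1, which was added after its values were seen, are printed to show which of them hold such repeats. Each window runs from 250 bases before to 50 after a RefSeq start site (GRCh38.p14, 300 bases, printed 5′ to 3′ along the gene), and some genes have several windows. Capitals mark core motifs of retinoic acid response elements, searched on both strands, so a match on the other strand reads as the reverse complement. The core motif AGGTCA was found in 13.8% of the 35116 windows in the table, the variant AGTTCA in 10.4%, the variant GGGTCA in 14.1% and the variant GGTTCA in 8.62%.
RARB, chr3:25428013-25428312, plus strand: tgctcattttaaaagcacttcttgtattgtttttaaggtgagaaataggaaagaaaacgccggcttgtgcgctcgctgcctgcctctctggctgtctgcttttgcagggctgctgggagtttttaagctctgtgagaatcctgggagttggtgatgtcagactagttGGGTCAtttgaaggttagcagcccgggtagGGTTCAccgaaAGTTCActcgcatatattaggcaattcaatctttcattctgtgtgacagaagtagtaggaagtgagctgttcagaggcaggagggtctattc
CYP26A1, chr10:93073643-93073942, plus strand: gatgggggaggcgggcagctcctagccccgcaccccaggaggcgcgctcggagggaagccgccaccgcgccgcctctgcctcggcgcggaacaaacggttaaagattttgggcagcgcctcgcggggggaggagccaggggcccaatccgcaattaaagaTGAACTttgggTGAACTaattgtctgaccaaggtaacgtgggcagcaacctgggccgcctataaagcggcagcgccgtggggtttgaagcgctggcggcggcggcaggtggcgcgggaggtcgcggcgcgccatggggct
ALDH1A2, chr15:58065662-58065961, minus strand: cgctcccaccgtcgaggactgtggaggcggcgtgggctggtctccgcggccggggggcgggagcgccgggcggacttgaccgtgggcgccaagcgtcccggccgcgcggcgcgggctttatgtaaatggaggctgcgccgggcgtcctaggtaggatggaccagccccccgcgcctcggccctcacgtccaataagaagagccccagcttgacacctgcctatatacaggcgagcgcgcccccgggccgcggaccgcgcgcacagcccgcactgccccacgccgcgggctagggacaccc
CRABP2, chr1:156705735-156706034, minus strand: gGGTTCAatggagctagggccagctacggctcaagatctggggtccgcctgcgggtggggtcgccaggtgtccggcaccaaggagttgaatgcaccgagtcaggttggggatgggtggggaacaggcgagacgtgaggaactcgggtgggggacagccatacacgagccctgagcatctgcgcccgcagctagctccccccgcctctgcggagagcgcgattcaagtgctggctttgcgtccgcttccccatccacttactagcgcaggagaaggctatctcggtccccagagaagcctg
The RARB window holds a direct repeat of 2 core motifs spaced by 5 bases, which begins 53 bases before the start site, and a further core motif. The CYP26A1 window printed holds a repeat with the same spacing on the other strand, whose printed letters begin 90 bases before the start. Another CYP26A1 window (chr10:93073225-93073524), listed before the printed one, holds 0 core motifs. The ALDH1A2 window printed, the first listed for that gene, holds 0 core motifs, and the CRABP2 window holds 1. The other ALDH1A2 window (chr15:58013974-58014273) holds 1, AGTTCA. Of all windows, 38.6% hold any of these motifs and 0.0883% hold a repeat spaced by 5, so the repeat is rare and a single motif is common. No other window of the 10 genes, 17 in all, holds a repeat spaced by 5. A match describes these letters and does not show that a receptor binds there.

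The deposited values are RMA values on a log2 scale, so a difference of 1 is a 2-fold change. The 6 shRNA arrays had lower and upper quartiles of 5.17 to 5.23 and 8.70 to 8.74, and the 6 vector arrays of 5.36 to 5.41 and 9.54 to 9.61, so the submitters may have normalized the vector arrays apart from the shRNA arrays, and no level was tested across them. A probe set below the lower quartile of its array is called dim here, since RMA gives no detection calls. KDM1B itself was named by 0 of the probe sets, which leaves its knockdown and overexpression unchecked.

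The group labelled LSD2/eGFP/Flag vector was unlike the other 3. Over the probe sets their correlation with the eGFP/Flag vector arrays was 0.908 to 0.912, while LSD2 shRNA and Scramble shRNA arrays correlated at 0.991 to 0.994. Of 13 markers of MDA-MB-231, 12 were lower on the LSD2/eGFP/Flag vector arrays, with summed linear levels of 8244 to 9643, against 71610 to 74225 on the eGFP/Flag vector arrays. ANXA1, a phospholipid-binding protein abundant in this line, averaged 4.65, against 13.25, and CD44, a hyaluronan receptor, averaged 3.99, against 12.41. Of 12 neuronal markers 5 were higher and 2 lower, with sums of 7549 to 8778, against 4415 to 4853 on the eGFP/Flag vector arrays. NEFM (mean 11.32, against 4.58) and TUBB2B (10.77, against 4.28) rose most, and TUBB3 and MAP2 were the 2 lower. Of 10 epithelial and luminal markers 2 were higher and 4 lower (sums of 5177 to 5465, against 10725 to 11637), and of 10 fibroblast and endothelial markers 3 were higher and 2 lower (sums of 745.4 to 838.6, against 712.1 to 754.2). None of 6 blood cell markers was called (sums of 424.1 to 446.7, against 433.5 to 450.4). In the shRNA comparison the same lists had 1, 0, 2, 1 and 1 called genes in that order, of 13, 12, 10, 10 and 6. Of all probe sets, 28.5% were higher and 26.1% lower in the vector comparison, and 8.73% were called in the shRNA comparison. Every vector difference below is a difference between these arrays as labelled and rests on this group, so it has no value without it. The part of the cells' identity in these differences was not tested. In bulk RNA, fewer cells of a type and less RNA per cell cannot be told apart.

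Against this background the retinoic acid genes differed little between LSD2 shRNA and Scramble shRNA. More of them were called between LSD2/eGFP/Flag vector and eGFP/Flag vector, as were more of all probe sets (54.6%, against 8.73%). In the vector comparison 11 of 22 probe sets were called (50%), beside 54.6% of all probe sets: 10 in 7 genes were higher (28.5% of all probe sets were) and 1, of ALDH1A3, was lower (26.1% of all). A probe set is called when its adjusted p is under 0.05 in limma with Benjamini-Hochberg adjustment over all 19064. The share called is near that of all probe sets. The median difference of the 22 was 0.14, beside 0.00 over all probe sets. The groups did not overlap in 10 of the 22, beside 59.2% of all, and 11 had an unadjusted p under 0.05, beside 58.0% of all. By at least 1 log2 unit 3 were higher, beside 8.84% of all, and 0 were lower, beside 8.4% of all. These 3 belong to ALDH1A2, CRABP2 and RARB, an enzyme, a carrier and a receptor.

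**Figure D1:**
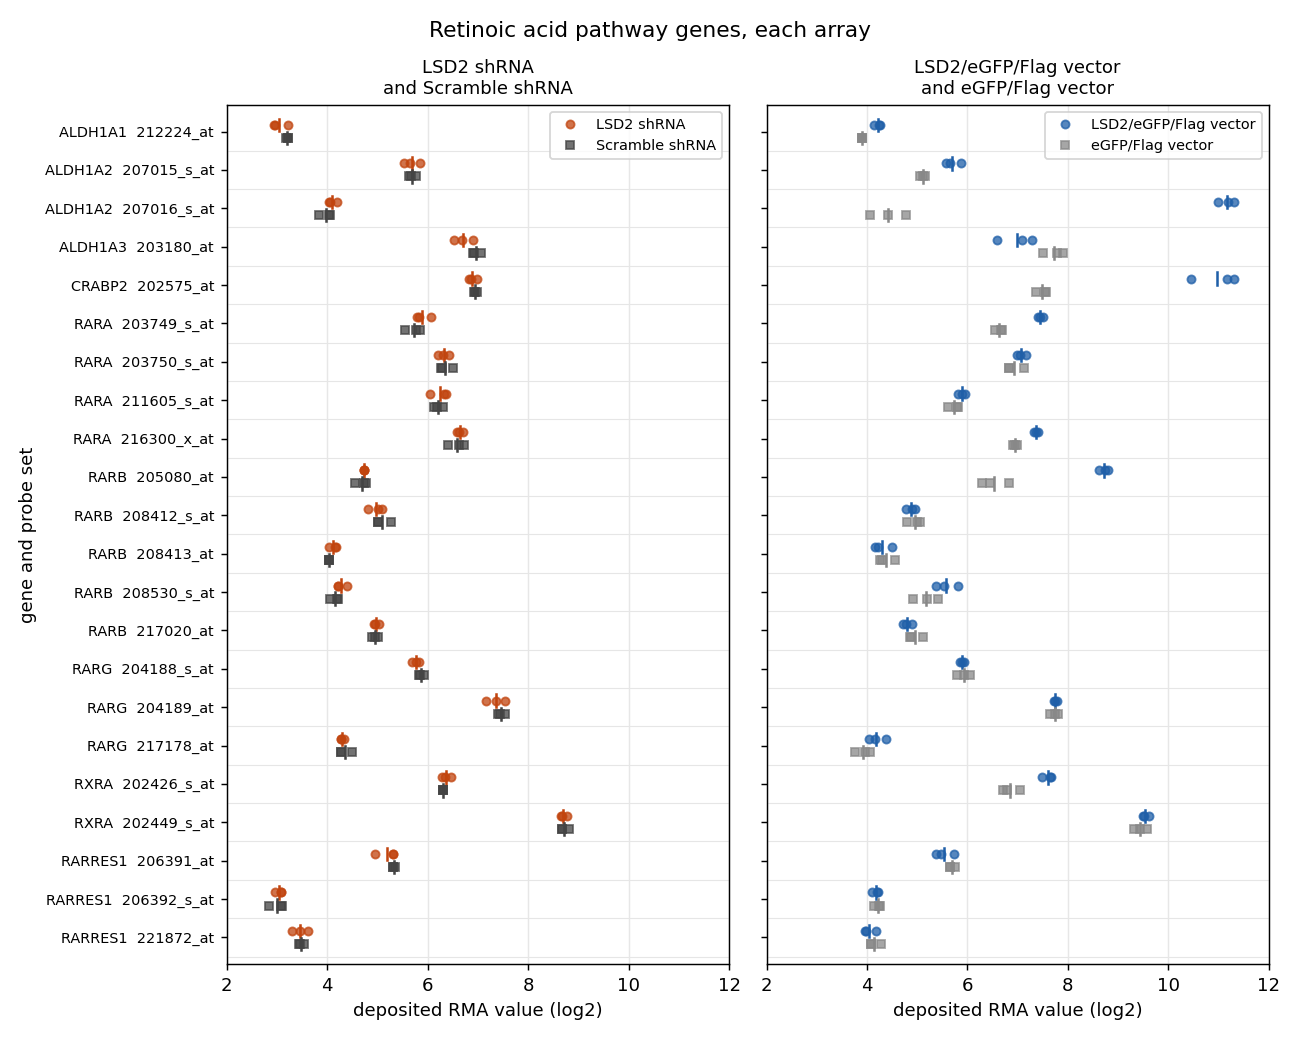
Deposited RMA values (log2, horizontal axis) of the 22 probe sets (rows) on each array, with LSD2 shRNA and Scramble shRNA on the left and LSD2/eGFP/Flag vector and eGFP/Flag vector on the right; points are arrays and vertical ticks are group means. On the right ALDH1A2 (207016_s_at) sits at 10.98 to 11.30 on the LSD2/eGFP/Flag vector arrays, against 4.06 to 4.78 on the eGFP/Flag vector arrays, while on the left the groups of nearly every row overlap.

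ALDH1A2 makes retinoic acid from retinal and is the main such enzyme of the early embryo in mice. Its gene lies on chromosome 15 and has 2 probe sets. Probe set 207016_s_at read 11.19, 10.98 and 11.30 on the LSD2/eGFP/Flag vector arrays, against 4.42, 4.78 and 4.06 on the eGFP/Flag vector arrays. The LSD2/eGFP/Flag vector arrays were all above the upper quartile of their array and the eGFP/Flag vector arrays all dim. The difference in RMA values was 6.74 ± 0.15 log2 units (SE of the fit). Since the eGFP/Flag vector arrays were dim, no fold change is given, and the same holds for the other genes below whose control arrays were dim. Probe set 207015_s_at of the same gene read 5.88, 5.65 and 5.57 on the LSD2/eGFP/Flag vector arrays, against 5.15, 5.12 and 5.06 on the eGFP/Flag vector arrays. It too rose without overlap, but by 0.59 ± 0.10, and its 3 eGFP/Flag vector arrays were all dim. The probe sets of this gene share a direction and differ in size. With LSD2 shRNA, 207016_s_at read 4.20, 4.05 and 4.04, against 4.05, 3.83 and 4.04 with Scramble shRNA. These 6 arrays were all dim and the groups overlapped, with a difference of 0.12 ± 0.15 (95% interval -0.20 to 0.44). For 207015_s_at the means were 5.68 ± 0.16 with LSD2 shRNA and 5.69 ± 0.07 with Scramble shRNA (SD, n = 3 each).

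ALDH1A1 and ALDH1A3, the other retinaldehyde dehydrogenases, moved in opposite directions in the vector comparison. ALDH1A1 (212224_at, chromosome 9) read 4.25, 4.14 and 4.26 on the LSD2/eGFP/Flag vector arrays, against 3.90, 3.90 and 3.89 on the eGFP/Flag vector arrays. It rose by 0.32 ± 0.08 without overlap, but was dim on all 12 arrays, where the order of low values carries little information. ALDH1A3 (203180_at, chromosome 15) read 7.09, 6.58 and 7.29 on the LSD2/eGFP/Flag vector arrays, against 7.78, 7.50 and 7.90 on the eGFP/Flag vector arrays. It fell by 0.74 ± 0.16, or 1.67-fold, and each LSD2/eGFP/Flag vector array lay below each control array. With LSD2 shRNA, ALDH1A3 read 6.52, 6.91 and 6.68, against 6.91, 7.07 and 6.92 with Scramble shRNA. The highest LSD2 shRNA array reached the lowest Scramble shRNA array, and the difference of -0.26 ± 0.16 (95% interval -0.61 to 0.09) was not called. ALDH1A1 averaged 3.04 ± 0.15 with LSD2 shRNA and 3.20 ± 0.02 with Scramble shRNA (SD, n = 3 each), and was not called either.

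CRABP2 carries retinoic acid to RARA in the nucleus. Its probe set (202575_at, chromosome 1) read 11.30, 10.45 and 11.16 on the LSD2/eGFP/Flag vector arrays, against 7.55, 7.37 and 7.54 on the eGFP/Flag vector arrays. All LSD2/eGFP/Flag vector arrays were above the upper quartile of their array, with replicate 2 the lowest, and no control array was. The difference was 3.48 ± 0.16, or 11.2-fold, the 170th highest of all probe sets. With LSD2 shRNA it read 6.81, 6.98 and 6.86, against 6.92, 6.95 and 6.98 with Scramble shRNA. These groups overlapped, and the difference of -0.06 ± 0.16 had a 95% interval of -0.41 to 0.29.

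RARB, the receptor whose promoter window holds the repeat printed above, has 5 probe sets on chromosome 3 that did not move together. Probe set 205080_at read 8.73, 8.61 and 8.80 on the LSD2/eGFP/Flag vector arrays, against 6.28, 6.83 and 6.45 on the eGFP/Flag vector arrays. It rose by 2.19 ± 0.12, or 4.58-fold, and the groups were far apart. With LSD2 shRNA the same probe set read 4.72, 4.74 and 4.73, against 4.78, 4.56 and 4.73 with Scramble shRNA. Here all arrays were dim and the groups overlapped, with a difference of 0.04 ± 0.12 (95% interval -0.21 to 0.29). Probe set 208530_s_at read 5.53, 5.80 and 5.37 on the LSD2/eGFP/Flag vector arrays, against 5.20, 4.92 and 5.41 on the eGFP/Flag vector arrays. It was called higher, by 0.39 ± 0.13, although the groups overlapped and 3 eGFP/Flag vector arrays and 1 LSD2/eGFP/Flag vector array were dim. That call was lost in limma with Benjamini-Hochberg adjustment when only the 6 vector arrays were fitted (adjusted p = 0.0545) and without replicate 2 of the LSD2/eGFP/Flag vector (0.0873) or of the eGFP/Flag vector (0.0886). Probe sets 208412_s_at, 208413_at and 217020_at differed by -0.08, -0.07 and -0.14, were dim on all 6 vector arrays and were not called. Between LSD2 shRNA and Scramble shRNA the 5 probe sets differed by -0.13 to 0.12. Probe set 208530_s_at was the 1 of the 22 whose shRNA groups did not overlap (26.2% of all probe sets did not), with 4.22, 4.22 and 4.39 for LSD2 shRNA and 4.21, 4.06 and 4.20 for Scramble shRNA, and it was not called.

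RARA and RXRA, which pair on response elements, each had probe sets that rose and probe sets that were not called. For RARA (chromosome 17), 203749_s_at read 7.45, 7.50 and 7.40 on the LSD2/eGFP/Flag vector arrays, against 6.68, 6.68 and 6.54 on the eGFP/Flag vector arrays, a rise of 0.82 ± 0.09. Its 216300_x_at, whose suffix marks probes that may also match other transcripts, read 7.36, 7.40 and 7.32, against 6.94, 6.91 and 6.98, a rise of 0.42 ± 0.08. In both the groups were apart. The other RARA probe sets, 203750_s_at and 211605_s_at, differed by 0.14 ± 0.10 and 0.15 ± 0.09 and were not called, although the groups of 211605_s_at did not overlap. For RXRA (chromosome 9), 202426_s_at read 7.49, 7.66 and 7.64 on the LSD2/eGFP/Flag vector arrays, against 6.72, 7.04 and 6.79 on the eGFP/Flag vector arrays, a rise of 0.75 ± 0.09 or 1.68-fold. Its other probe set, 202449_s_at, read 9.49, 9.51 and 9.61, against 9.32, 9.56 and 9.43, and with overlapping groups and a difference of 0.10 ± 0.08 it was not called. Between LSD2 shRNA and Scramble shRNA RARA differed by -0.04 to 0.17 and RXRA by -0.02 to 0.06.

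RARG, the third retinoic acid receptor, showed no call in the vector comparison on 2 of its 3 probe sets (chromosome 12). Probe set 204189_at read 7.75, 7.72 and 7.77 on the LSD2/eGFP/Flag vector arrays, against 7.65, 7.75 and 7.80 on the eGFP/Flag vector arrays. These groups overlapped, and the difference of 0.02 ± 0.09 had a 95% interval of -0.18 to 0.21. Probe set 204188_s_at differed by -0.04 ± 0.08. Probe set 217178_at read 4.15, 4.04 and 4.37, against 3.77, 4.07 and 3.95, and was called higher by 0.26 ± 0.10. It was dim on all 12 arrays and its groups overlapped. The call was lost under 6 alternatives: with only the vector arrays in the fit, after a shift of all arrays to equal medians, and without replicate 1 or 3 of either vector group (limma with Benjamini-Hochberg adjustment, adjusted p from 0.0687 to 0.202). With LSD2 shRNA against Scramble shRNA the RARG probe sets differed by -0.11 to -0.05.

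RARRES1, a membrane protein gene known to be induced by retinoids in skin, was not called with any of its 3 probe sets (chromosome 3) in either comparison. Probe set 206391_at read 5.47, 5.73 and 5.38 on the LSD2/eGFP/Flag vector arrays, against 5.76, 5.65 and 5.65 on the eGFP/Flag vector arrays, and the groups overlapped. Its difference was -0.16 ± 0.11, and those of 206392_s_at and 221872_at, both dim on all 12 arrays, were -0.04 ± 0.08 and -0.10 ± 0.09. With LSD2 shRNA the 3 differed by -0.13 to 0.03. Over all genes of the list, the 11 probe sets not called in the vector comparison lay between -0.16 and 0.15, with 95% intervals that reached -0.39 and 0.36.

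The LSD2 shRNA came with no call among these genes: 0 of 22 probe sets passed limma with Benjamini-Hochberg adjustment in the shRNA comparison, beside 8.73% of all probe sets (3.93% higher and 4.79% lower), and 0 had an unadjusted p under 0.05, beside 21.2% of all. Past 1 log2 unit there were 0 as well, where 0.299% of all probe sets were called higher and 0.168% lower. None of the 8 other fits, the 6 fits without 1 array or the 2 stricter thresholds called any. The 22 differences ran from -0.26 (ALDH1A3) to 0.17 (RARA, 203749_s_at), with a median of -0.01, beside -0.01 over all probe sets. Their 95% intervals lay within -0.61 and 0.44, which bounds the size of a difference and does not show that the groups were alike. Both comparisons used 1 estimate of the spread per probe set, and whether the LSD2 shRNA and LSD2/eGFP/Flag vector differences themselves differed was not tested.

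**Figure D2:**
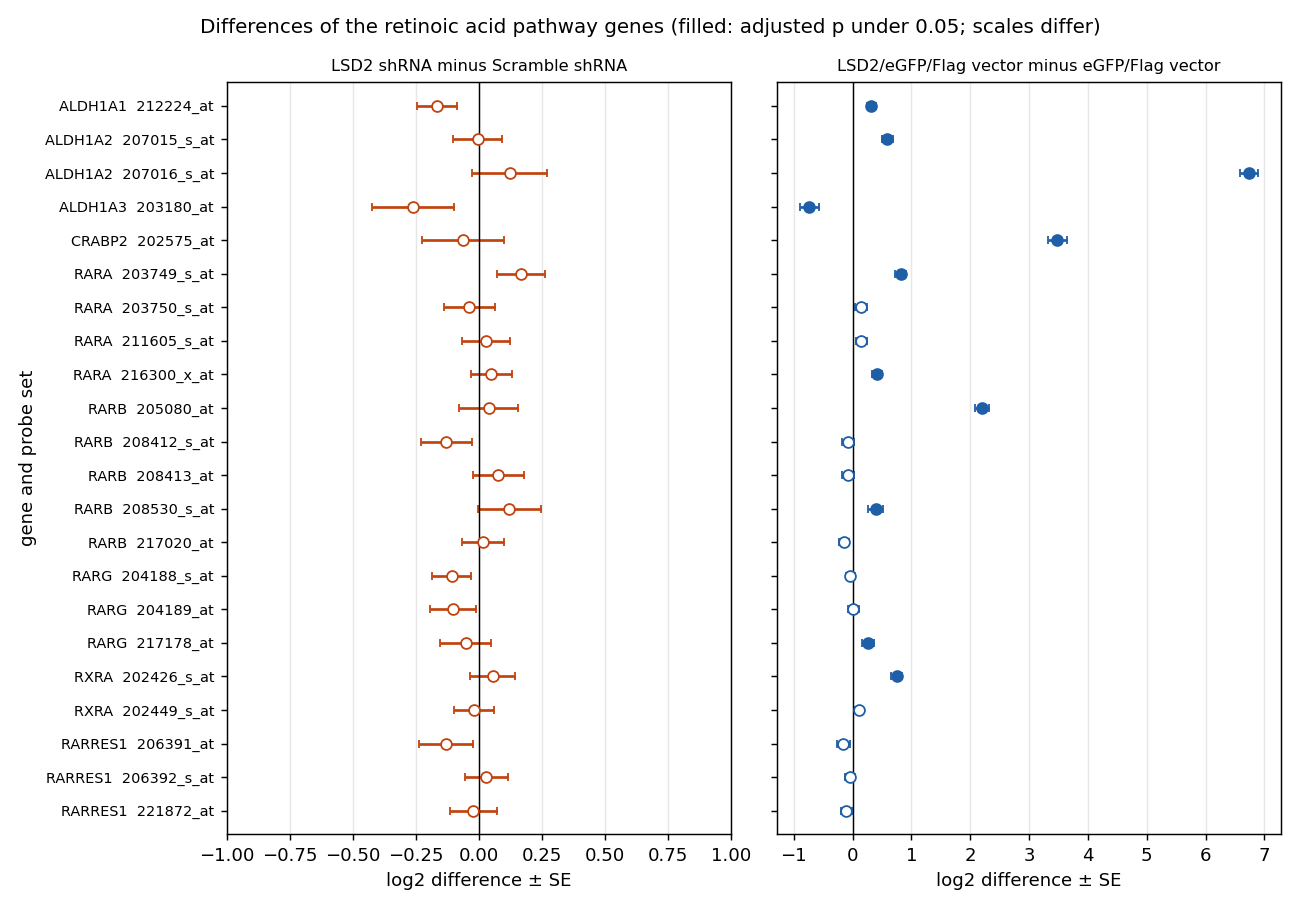
Log2 differences (horizontal axis) with their standard errors for the 22 probe sets (rows), LSD2 shRNA minus Scramble shRNA on the left and the LSD2/eGFP/Flag vector less its control vector on the right, on different scales; filled points were called. None is filled on the left and 11 are on the right, where ALDH1A2 (207016_s_at) at 6.74, CRABP2 at 3.48 and RARB (205080_at) at 2.19 lie farthest from 0.

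The probe sets of other genes whose values over the 12 arrays lay closest to ALDH1A2 207016_s_at were ranked by Euclidean distance, after centring the shRNA and the vector arrays on their own means. They were CADM1 (209031_at, a cell adhesion molecule, distance 0.581), TLE4 (204872_at, a transcriptional corepressor, 0.714), DMD (203881_s_at, dystrophin, 0.748), TUBB2B (214023_x_at, a neuronal tubulin, 0.768) and BEX4 (215440_s_at, 0.783). Their vector differences were 6.56, 7.16, 6.48, 6.48 and 6.67 log2 units in that order. TUBB2B is 1 of the 12 neuronal markers counted above, and the suffix of its probe set marks probes that may also match other transcripts. Of those markers 5 were higher and 2 lower, at -0.68 for TUBB3 and -0.79 for MAP2. The distance describes the same contrast as the differences and adds no test.

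The genes around these 10 were taken from 6 lists of 83 genes, of which 62 were measured by 104 probe sets. In the vector comparison 25 probe sets were higher and 27 lower (50%, beside 54.6% of all), with a median of -0.04, beside 0.00 over all. In the shRNA comparison 6 were higher and 9 lower (14.4%, beside 8.73% of all), with a median of -0.02, beside -0.01. The p-values below are from limma with Benjamini-Hochberg adjustment over all probe sets.

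Retinol supply did not register a call. Of its 9 genes, which include the plasma carrier RBP4 and its receptor STRA6, 6 were measured, by 7 probe sets. In the shRNA comparison 0 were called, beside 8.73% of all probe sets, and in the vector comparison 0, beside 54.6%. The vector differences ran from -0.18 to 0.12. These counts use limma with Benjamini-Hochberg adjustment. With an unadjusted p under 0.05 there were 0 as well, beside 21.2% and 58.0% of all in that order. The oxidoreductases interconvert retinol and retinal or oxidise retinal to retinoic acid. In the vector comparison 4 of their 17 probe sets were higher and 1 lower (29.4% called, beside 54.6% of all). In the shRNA comparison 0 were called, beside 8.73% of all. DHRS3, a retinal reductase that retinoic acid is known to induce, read 7.92, 7.86 and 7.94 on the LSD2/eGFP/Flag vector arrays, against 6.58, 6.70 and 6.47 on the eGFP/Flag vector arrays. It rose by 1.32 ± 0.08 (adjusted p = 4.35e-09), with no overlap. ALDH8A1, which oxidises retinal, read 5.76, 5.24 and 5.72, against 4.14, 4.22 and 4.15, a rise of 1.41 ± 0.11 (adjusted p = 1.17e-07). Its eGFP/Flag vector arrays were all dim. ADH5, a broadly expressed alcohol dehydrogenase, rose by 0.53 ± 0.07 (adjusted p = 1.31e-05) and, on its other probe set, by 0.49. AKR1B10, a retinal reductase, fell by 1.23 ± 0.27 on the log2 scale (adjusted p = 0.00142), with 5.27, 5.46 and 5.15, against 6.65, 6.58 and 6.34. Replicates 1 and 3 of the LSD2/eGFP/Flag vector were dim for it.

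The enzymes that break retinoic acid down moved in opposite directions in the vector comparison. CYP26A1, the hydroxylase whose promoter window is printed above, read 7.60, 7.79 and 7.59 on the LSD2/eGFP/Flag vector arrays, against 4.84, 5.07 and 5.34 on the eGFP/Flag vector arrays. It rose by 2.57 ± 0.12 (adjusted p = 6.35e-10) with no overlap, and the eGFP/Flag vector arrays were all dim. CYP26B1, a related hydroxylase, read 7.81, 7.34 and 7.67, against 10.004, 9.86 and 9.64. It fell by 2.23 ± 0.12 on the log2 scale (adjusted p = 1.64e-09), a 4.69-fold lower value with no overlap. Neither was called in the shRNA comparison, at -0.04 ± 0.12 for CYP26A1 and -0.30 ± 0.12 for CYP26B1.

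Among the other receptors and the carrier, FABP5, a fatty acid binding protein that can deliver retinoic acid to PPARD, was called in both comparisons. With LSD2 shRNA it read 11.75, 11.57 and 11.64, against 11.02, 10.88 and 11.14 with Scramble shRNA, a rise of 0.64 ± 0.09 (adjusted p = 0.000601). On the LSD2/eGFP/Flag vector arrays it read 11.42, 11.44 and 11.25, against 12.37, 12.45 and 12.31 on the eGFP/Flag vector arrays, a fall of 1.01 ± 0.09 (adjusted p = 2.45e-07). In each comparison the groups did not overlap. FABP5 was the 1 probe set of 11 called in the shRNA comparison (9.09%, beside 8.73% of all). In the vector comparison 3 were higher and 1 lower, beside 28.5% and 26.1% of all. RORB, an orphan nuclear receptor that can bind retinoic acid, rose by 0.32 ± 0.08 (adjusted p = 0.00256), and its eGFP/Flag vector arrays were all dim. The calls of PPARD (210636_at, 0.28 ± 0.11) and RORA (210426_x_at, 0.21 ± 0.08) were each lost in 5 and 7 of 13 alternatives, in that order, their eGFP/Flag vector arrays were dim too, and the other 2 probe sets of PPARD and the other of RORA were not called.

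Of 36 coregulator probe sets, 6 were higher and 17 lower in the vector comparison, beside 28.5% and 26.1% of all probe sets, with a median of -0.17. The 17 lower ones belong to 8 genes, and probe sets that share a gene are not independent. PRAME, a repressor of RAR signalling known from melanoma, read 9.81, 9.56 and 9.80 on the LSD2/eGFP/Flag vector arrays, against 5.72, 5.78 and 6.39 on the eGFP/Flag vector arrays. It rose by 3.76 ± 0.15 (adjusted p = 6.75e-11), or 13.5-fold. ZBTB16, a transcriptional repressor fused to RARA in rare leukaemias, rose by 1.61 ± 0.11 (adjusted p = 2.70e-08), and its eGFP/Flag vector arrays were all dim. KAT2B, an acetyltransferase coactivator, fell by 1.66 ± 0.12 (adjusted p = 6.16e-08). EP300, another acetyltransferase, rose by 1.48 ± 0.18 with 202221_s_at (adjusted p = 6.66e-06), while its 213579_s_at, at 0.22, was not called. Of the same 36, 3 were higher and 1 lower in the shRNA comparison, beside 3.93% and 4.79% of all. The 3 are probe sets of TBL1X, part of a corepressor complex, at 0.53 ± 0.08, 0.49 ± 0.09 and 0.36 ± 0.09 (adjusted p = 0.00161, 0.00385 and 0.0304). The last of these calls was lost in 5 of 14 alternatives, and the other 2 TBL1X probe sets, at 0.17 and 0.15, were not called. NCOA1, a coactivator, fell by 0.32 ± 0.08 with 210249_s_at (adjusted p = 0.0247), a call also lost in 5 of 14 alternatives, and its other 3 probe sets were not called. In the vector comparison the 3 TBL1X probe sets were instead called lower, at -0.28, -0.28 and -0.38, as was its 201868_s_at, at -0.36.

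Genes that retinoic acid is known to induce did not share a direction. Of 31 probe sets 11 were higher and 7 lower in the vector comparison, beside 28.5% and 26.1% of all, with a median of -0.00. With LSD2 shRNA 2 were higher and 8 lower, beside 3.93% and 4.79% of all, with a median of -0.06. The 8 lower ones belong to 5 genes, and probe sets that share a gene are not independent. GPRC5A, named for its induction by retinoic acid, fell by 2.80 ± 0.09 and, with its other probe set, fell by 2.46 ± 0.13 in the vector comparison (adjusted p = 1.24e-11 and 1.20e-09). Its 203108_at read 6.36, 6.45 and 6.67 on the LSD2/eGFP/Flag vector arrays, against 9.30, 9.32 and 9.28 on the eGFP/Flag vector arrays, with no overlap. HOXB2, a homeobox gene of hindbrain patterning, rose by 1.86 ± 0.13 (adjusted p = 2.55e-08), with 8.69, 8.66 and 8.41, against 7.08, 6.50 and 6.59. RET, a receptor tyrosine kinase, rose by 2.19 ± 0.21 with 211421_s_at (adjusted p = 8.59e-07) and by 0.33 and 0.30 with its other probe sets, and the eGFP/Flag vector arrays of 211421_s_at were all dim. With LSD2 shRNA, FOXA1, a pioneer transcription factor, rose by 0.74 ± 0.13 (adjusted p = 0.00298). LAMB1, a laminin chain, fell by 0.72 ± 0.13 (adjusted p = 0.00495) and, with its other probe set, fell by 0.53. MEIS2 and HOXD4, homeobox genes, had differences of -0.61 ± 0.09 and -0.58 ± 0.10 and were called lower (adjusted p = 0.000939 and 0.00373).

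Some of these genes were called in both comparisons, and those named here were chosen after their values were seen. TGM2, a transglutaminase, was lower with 3 of its 4 probe sets in both, at -0.40 to -0.47 with LSD2 shRNA and -0.54 to -0.79 on the LSD2/eGFP/Flag vector arrays. HOXD4 was lower in both as well, at -0.58 with LSD2 shRNA and -0.89 with the LSD2/eGFP/Flag vector. LAMB1, MEIS2 and RIPK4, a protein kinase, were lower with LSD2 shRNA and higher on the LSD2/eGFP/Flag vector arrays, where they differed by 1.05 and 0.73, 0.54, and 1.35. RAI14 was higher with LSD2 shRNA, by 0.55, and lower on the LSD2/eGFP/Flag vector arrays, at -0.72. FOXA1 is also on the epithelial marker list, and its rise with LSD2 shRNA came beside a rise of EPCAM, an epithelial adhesion molecule, of 0.57. These were the 2 of 10 measured markers of that list called higher, and 0 were called lower. KRT8 and KRT18, at -0.30 and -0.25, were not called. The summed linear level of the list was lower with LSD2 shRNA, at 8238 to 8862, against 9687 to 10039 with Scramble shRNA. The part of marker differences in these values was not tested.

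**Figure D3:**
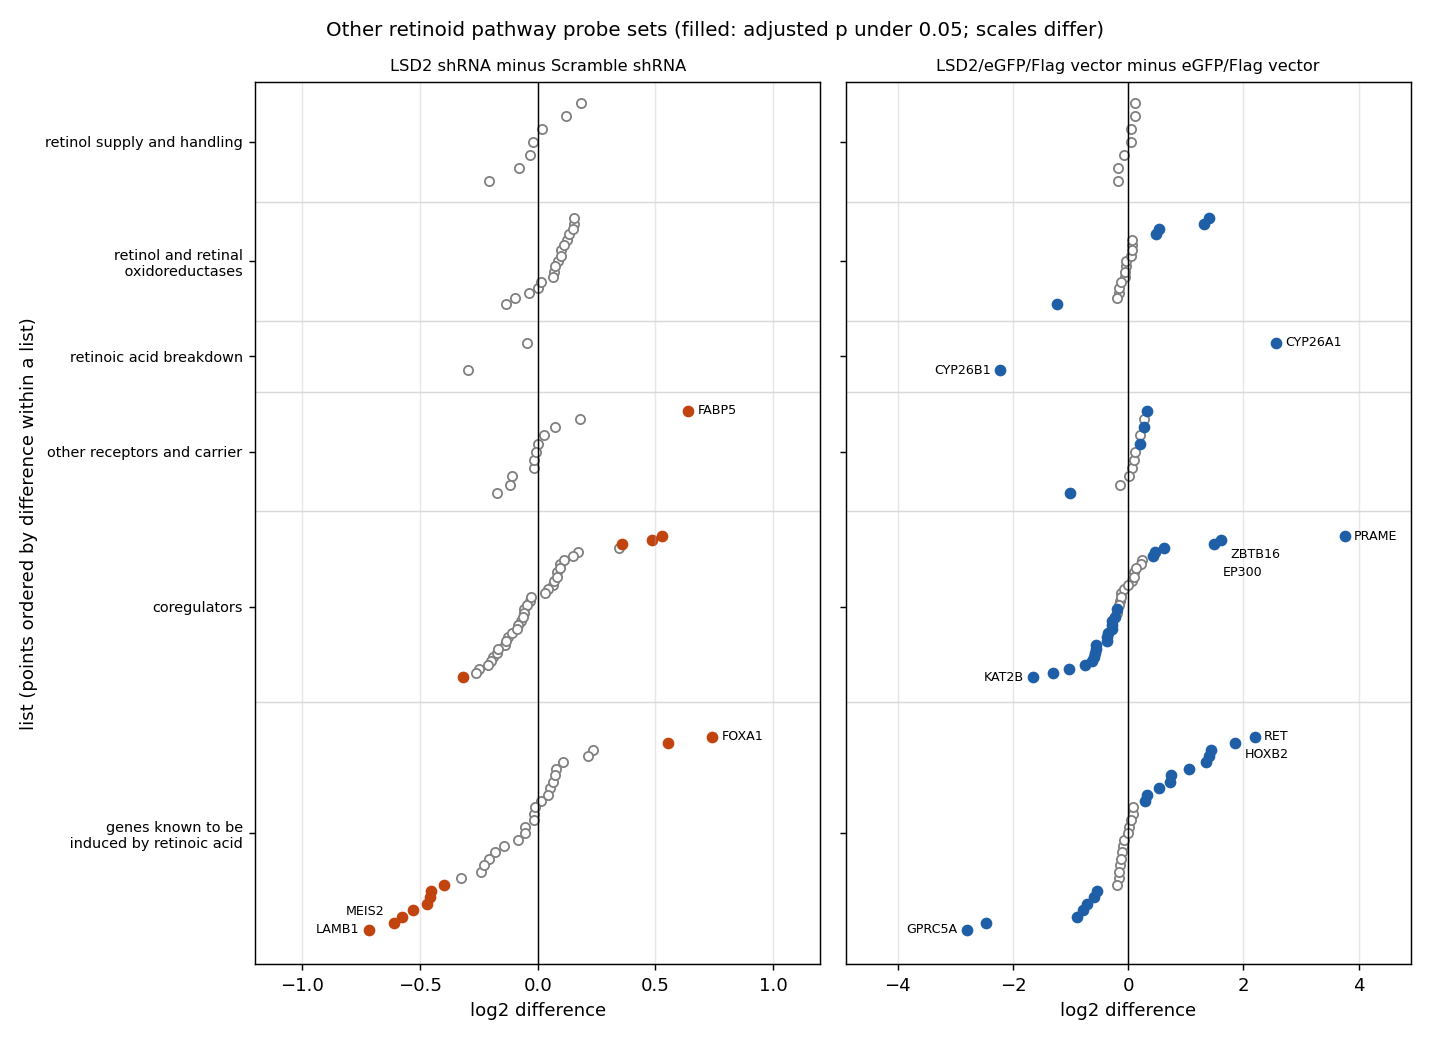
Log2 differences (horizontal axis) of the 104 probe sets of 6 retinoid lists (bands, points ordered by difference within a list), LSD2 shRNA minus Scramble shRNA on the left and the LSD2/eGFP/Flag vector less its control vector on the right, on different scales; filled points were called and the farthest called genes are named. On the right PRAME (3.76), CYP26A1 (2.57), CYP26B1 (-2.23) and GPRC5A (-2.80) lie far from 0, and 15 points are filled on the left and 52 on the right.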

How the data were processed

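RNA of 12 samples was hybridised to Affymetrix arrays. The authors deposited log2 values of 22277 probe sets, made with RMA per the submitters' processing notes; neither its version nor the software is given in the sources used here. Leaving out 62 controls, 19064 probe sets name 1 gene in the platform annotation, which can be old (19052 matched a RefSeq gene table of GRCh38.p14; 12 kept the annotation's name). Those naming several genes (1043) or no listed gene (2108) were not analysed here.

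Differences were fitted in limma 3.58.1 (R 4.3.3; tables with Python 3.11.15 and pandas 2.3.3) on the deposited values, with a mean for each of the 4 groups, all 12 arrays and eBayes moderation (residual degrees of freedom 8, prior 4.95), two-sided, with Benjamini-Hochberg adjustment over all 19064 probe sets and a threshold of 0.05. The fit was tested on simulated data. The number of arrays limits the precision.

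The 10 genes and all lists were chosen with earlier results of these data known. Every probe set of the 10 was named. Of each retinoid list and comparison, up to 4 called probe sets with the largest differences and no overlap between groups were named, and of each marker list its counts and extremes. Marker lists used the brightest probe set of a gene. Alternatives were another scope of the fit, a replicate block, other scalings, stricter thresholds, weights per array, a prior with an intensity trend, a filter on the dimmest 25% of probe sets and the fit without each array.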

Additional observations from a re-analysis of the deposited data

How the results depend on the processing

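Among the 10 genes, 0 probe sets were called in the shRNA comparison under every alternative run, and 300 of 300 recomputed differences moved by less than 1 SD. In the vector comparison 8 to 11 were called in the other fits (11 as reported) and 10 with each array left out. The 8 came from the filter on the dimmest probe sets, which kept 14 of the 22 in the fit. It left out the called probe sets ALDH1A1 212224_at, RARB 208530_s_at and RARG 217178_at, so these were not tested there. Of 300 differences 10 moved by more than 1 SD, 0 reversed, and 9 calls changed, in 1 probe set each of RARB and RARG. With a difference of at least 1 required, 3 were called. Under that size threshold the retinoid lists held 0 calls in the shRNA comparison (15 as reported) and 20 in the vector comparison (52), and all probe sets 89 (1664) and 3286 (10404). With adjusted p under 0.01 the shRNA comparison called 713 of all probe sets and with array weights 2957. Leaving out 1 array gave 929 to 1348, with 929 without Scramble shRNA replicate 1, 933 without LSD2 shRNA replicate 1 and 1030 without Scramble shRNA replicate 2. It gave 10 to 14 in the retinoid lists; in the vector comparison these ranges were 46 to 52 and 9710 to 10011. The split of all shRNA calls was 750 higher and 914 lower as reported, 917 and 688 after a shift to equal medians, and 825 and 815 after cyclic loess. The cause of these changes was not tested.

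The labels link same-numbered arrays only by their number. For replicates 1, 2 and 3 their deviations from the group means correlated at 0.00252, 0.456 and 0.385 in the shRNA arrays. In the vector arrays these values were -0.156, 0.136 and 0.149. Not every array correlated best with its own number. LSD2 shRNA replicate 2 correlated at -0.393 with Scramble shRNA replicate 3, and LSD2 shRNA replicate 3 at -0.445 with Scramble shRNA replicate 2. The reported fit has no term for the replicate number, and what same-numbered shRNA arrays share was not tested. With the replicate number as a block, 0 and 11 probe sets of the 10 genes, 13 and 51 of the retinoid lists and 2099 and 10554 of all were called in the shRNA and vector comparisons. Low RMA values have no detection call, which limits what the dim probe sets can show.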

Other observations

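Genes of the RefSeq table whose promoter window holds the direct repeat of core motifs spaced by 5 bases were looked up on the arrays, a choice made after the values of RARB and CYP26A1 were seen. Of 29 such genes, 10 were measured, by 27 probe sets. In the vector comparison 4 probe sets were higher and 10 lower in limma with Benjamini-Hochberg adjustment (28.5% and 26.1% of all probe sets), with a median of -0.09, beside 0.00 over all. The 4 belong to CYP26A1 (2.57), RARB (2.19 and 0.39) and PHF8, a histone demethylase (0.91, with its other probe set at -0.01). Of the 10 lower ones 9 are probe sets of CFLAR, a regulator of cell death, from -0.45 to -2.30, and 1 is of PANK2, an enzyme of coenzyme A synthesis (-0.84). In the shRNA comparison 0 were higher and 7 lower (3.93% and 4.79% of all probe sets), all of CFLAR, whose 11 probe sets share a gene and are not independent. The window describes letters in the reference and not binding in these cells.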
